A study of Bos taurus with 8 samples.

Results

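The lipoxygenase, leukotriene and prostaglandin enzymes form a set of 10 genes (of 16966 gene symbols on the array), which were taken by symbol from the authors' deposited table of group averages: ALOX5, ALOX5AP, ALOX12, ALOX15, LTA4H, LTC4S, PTGS1, PTGS2, PTGES and PTGES3. They are represented by 23 of the 43653 probes of a bovine single-colour (Cy3) array, and each probe was read apart. Transcript levels were measured in whole blood of clinically healthy female Holstein Friesian cows (n = 5), in 2 groups of 4 arrays. In the first group, named CPE after the cowpea phenolic extract, fresh blood was incubated with a phenolic extract of cowpea leaf at 10 µg/ml, for 30 min in a humid incubator (37 °C, 5% CO2). In the other, CONTROL, blood was kept in the same way with no extract. All of the cows had been given a probiotic pack, FastTrack, for 60 days before the blood was drawn, so both groups share that treatment. The study set treated against untreated blood, and plant phenolics are known to act on enzymes of this pathway.

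The series text describes pooled RNA per group. The sources used here do not say which cow went into which pool or array. The p-values below therefore describe the spread between 4 arrays of a group, which may be technical. All 4 CPE arrays lie on 1 slide and all 4 CONTROL arrays on the other, 0 slides held both groups, and the slides were scanned 7.4 months apart with 2 different grid versions. Slide and treatment cannot be told apart. In whole blood, fewer cells of a type and less RNA per cell cannot be told apart either.

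Eicosanoids are lipid messengers made on demand from arachidonic acid, which a phospholipase cuts out of the cell membrane. Lipoxygenases turn it into leukotrienes and hydroxylated fatty acids, which draw neutrophils to a site of inflammation and later help to end it, whereas cyclooxygenases turn it into prostaglandins and, in platelets, thromboxane. In blood, neutrophils and monocytes are known for 5-lipoxygenase and leukotriene B4, platelets for cyclooxygenase 1 and, in man, eosinophils for 15-lipoxygenase.

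The probes on which the results turn are shown as the DNA letters given in the authors' deposited table, 5′ to 3′, since the 2 probes of a gene often disagreed. Every one of the 23 probes is 60 bases long. The lipoxygenase probes are given first, as whole probes for ALOX5 and as the first 30 bases for ALOX15.
ALOX15 A_73_102134, bright on all arrays: ggtatctggcctcagtgtttttcccaaagg
ALOX15 A_73_P102651, dim on all arrays: acattctgacttgctggaaaagtctggatg
ALOX5 A_73_114122, in bright surroundings: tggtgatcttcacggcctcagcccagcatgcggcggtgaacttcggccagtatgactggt
ALOX5 A_73_P102001, in dark surroundings: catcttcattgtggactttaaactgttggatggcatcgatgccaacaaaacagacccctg
The last 30 bases of the ALOX5AP probe that was measured on every array hold AATAAA, the letters of the polyadenylation signal, in capitals. This motif, searched on the printed strand only, occurred in 3 of the 23 member probes and in 4083 of the 43653 probes (9.35%).
ALOX5AP A_73_P048031: cccagtttatgttttcctaaAATAAAatgc
LTC4S is shown by the first 30 bases of the probe that separated the groups and by the whole of the probe that did not.
LTC4S A_73_P039456: gacggatctgcagttgagccggagcctcct
LTC4S A_73_P140466: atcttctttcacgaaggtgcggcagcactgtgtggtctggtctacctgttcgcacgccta
Of the 3 PTGES probes, 2 are the same 60 bases but for 2 substitutions, A10C and A59C, counted from 1 at the 5′ end of the first of them. The first and last 30 bases of each are printed with the differing base in capitals.
PTGES A_73_111837, first 30: ttttggaacAtaacgaccttctgaatccag
PTGES A_73_P110216, first 30: ttttggaacCtaacgaccttctgaatccag
PTGES A_73_111837, last 30: ggatgtaataaatgaggacttctcacctAc
PTGES A_73_P110216, last 30: ggatgtaataaatgaggacttctcacctCc
The LTA4H probes A_73_P206237 and A_73_P490518 share a run of 46 bases, so they read nearly the same stretch of transcript from different places on the array. The first 30 bases of that run are shown.
LTA4H A_73_P206237 and A_73_P490518: acaaaggatcaccaatcgaaatctctcttc

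Large areas of these arrays were dim. A spot is called bright-placed here when the raw signal of its 61 nearest spots (their 90th percentile) came within 1.5 log2 units of the 90th percentile of such local values over that array, and dark-placed otherwise. This definition was made after earlier results of these data were known, and it does not use the groups. By it, 12970 of the 43803 spots that are no controls (29.6%) were bright-placed on all 8 arrays, and these spots are called the bright area. The scanner software called 37.8% to 49.9% of spots well above background on CPE arrays and 26.4% to 37.1% on CONTROL arrays. No spot was saturated.

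Of the 23 member probes, 7 were bright-placed on all 8 arrays (30.43%), and they belong to ALOX5, ALOX5AP, ALOX15, LTA4H and PTGS1. A further 7 were bright-placed on some arrays and 9 on none. Only 3 member probes, 1 each for ALOX15, ALOX5 and ALOX5AP, were well above background on all 8 arrays (13.04%, against 22.1% of all probes), and all 3 lay in the bright area. Another 13 were well above background on some arrays and 7 on none. Counted as single values, 45 of the 72 member values from bright-placed spots were well above background, against 17 of the 112 from dark-placed spots. Neither PTGS2, with 3 probes, nor ALOX12, with 1, was well above background on any array.

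**Figure D1:**
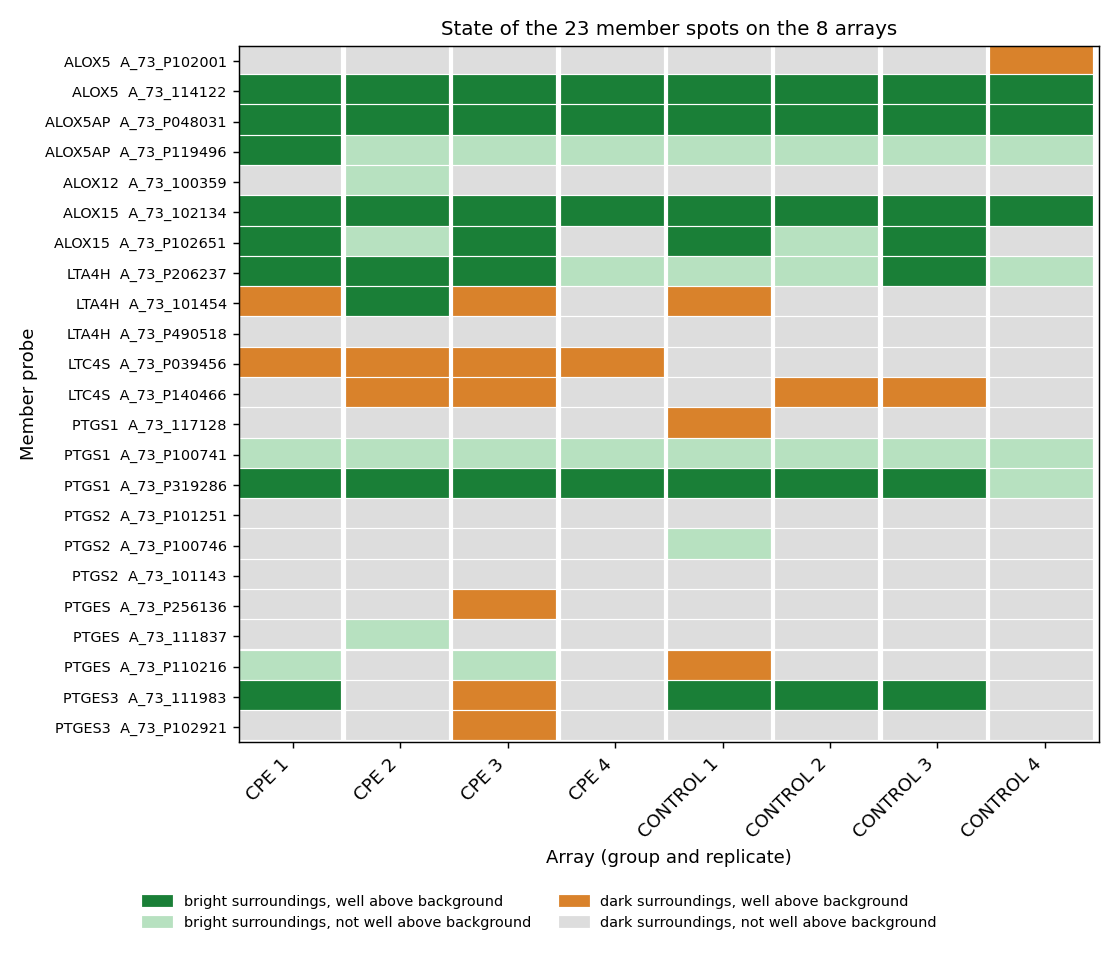
Each row is 1 of the 23 member probes and each column 1 array, with the 4 CPE arrays left of the 4 CONTROL arrays. Colour gives whether the spot had bright or dark surroundings and whether it was well above background; the 3 rows of dark green across all 8 arrays are ALOX5 A_73_114122, ALOX5AP A_73_P048031 and ALOX15 A_73_102134.

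**Figure D2:**
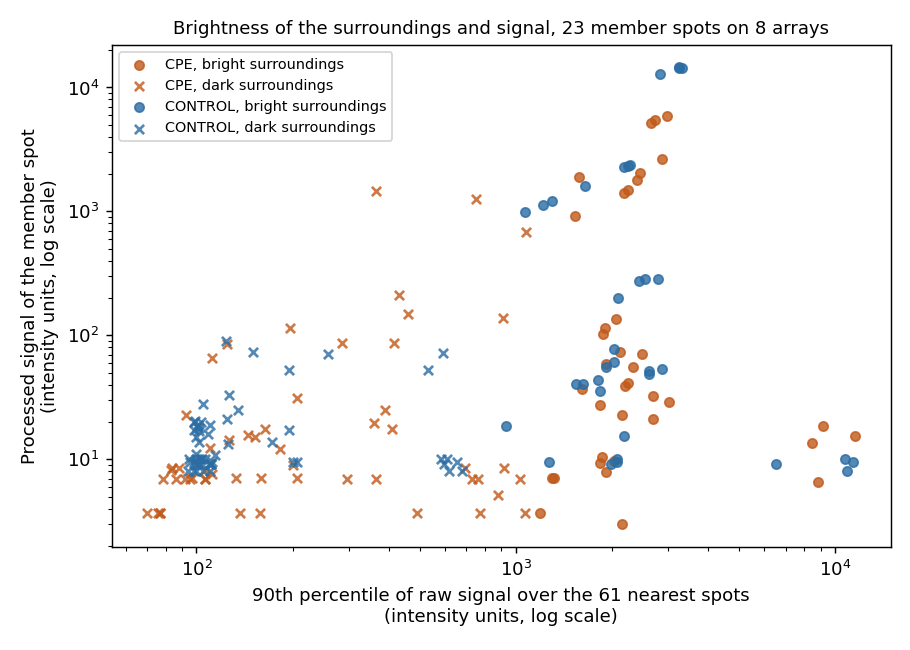
Each of the 184 points is 1 member probe on 1 array. The horizontal log axis is the raw signal around the spot (90th percentile of the 61 nearest spots) and the vertical log axis its processed signal, both in intensity units. Points with dark surroundings lie mostly near the floor of the vertical axis, and the uppermost points, those of ALOX15 A_73_102134, all had bright surroundings.

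Levels were compared on a log2 scale relative to the 75th percentile of each array, once over all spots and once within the bright area, with limma's moderated test and Benjamini-Hochberg adjustment over all probes tested. Tested probes were those well above background on every array of either group. Changes are CPE minus CONTROL, and a change counts as passed when its adjusted p is under 0.05. Over the whole array 39.0% of 14906 probes passed (17.4% higher and 21.6% lower in CPE), and in the bright area 48.4% of 8025 (24.5% higher and 23.9% lower). At an unadjusted p under 0.05 the shares were 53.1% and 55.8%. The median log2 change was -0.81 over the whole array and 0.034 in the bright area, so whole-array changes of the members are given relative to that median as well. The share of rises depended on the filter and on the scaling. Of the 9643 probes well above background on all 8 arrays, 204 rose and 3463 fell over the whole array. With no scaling, 3239 probes rose and 1146 fell over the whole array, and 437 rose and 1032 fell in the bright area; with local centring, which removes the shift shared by neighbouring spots, 6772 rose and 2638 fell over the whole array, and 3551 rose and 2126 fell in the bright area.

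Against that background, 5 member probes of 5 genes could be tested over the whole array, of which 1 passed as higher (LTC4S, which entered the test only through its CPE arrays and was at the floor on CONTROL arrays) and 3 fell (ALOX15, ALOX5 and ALOX5AP). In the bright area 4 member probes of 4 genes could be tested, of which 0 rose and 2 fell (ALOX15 and ALOX5). With 39.0% and 48.4% of all tested probes past the threshold, these counts do not set the members apart from other genes. ALOX12, LTA4H, PTGS2, PTGES and PTGES3 were tested in neither comparison. Groups did not overlap in scaled level for 5 of the 5 members tested over the whole array and for 2 of the 4 in the bright area, where 46.1% and 50.5% of all tested probes did not overlap.

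The 2 lipoxygenases that could be measured were both lower in CPE blood. In man, ALOX15 is the 15-lipoxygenase that makes 15-hydroxy fatty acids and precursors of lipoxins. It was read here by A_73_102134, a bright spot with bright surroundings on every array. Around this spot the raw signal was 2641 to 2966 on CPE arrays and 2827 to 3312 on CONTROL arrays. The part of the surroundings in the change of ALOX15 was not tested. The processed signal of the spot was 5899.8, 5128, 2629 and 5421 intensity units on CPE arrays 1 to 4, against 14427, 14502, 14392 and 12849.9 on CONTROL arrays 1 to 4. Every CPE value lay below every CONTROL value before any scaling. CPE replicate 3 was the lowest of the 8, and it was also the array with the lowest 75th percentile of the bright area (log2 8.65, against 9.44 to 9.55 on the other CPE arrays and 9.19 to 9.59 on CONTROL arrays).

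After scaling to the bright area, the ALOX15 log2 level was 2.97, 2.88, 2.71 and 2.96 on CPE arrays and 4.23, 4.31, 4.30 and 4.46 on CONTROL arrays. The CPE mean was 2.88 (SD 0.12, n = 4) and the CONTROL mean 4.32 (SD 0.096, n = 4), and the groups stayed well apart. ALOX15 was 2.72-fold lower in CPE, a log2 change of -1.44 (SE 0.092, 95% interval -1.65 to -1.23, limma adjusted p = 1.08e-05). Over the whole array the change was -2.57 (SE 0.53, limma adjusted p = 0.0034), which is -1.75 relative to the median probe. Without CPE replicate 3 the bright-area change was -1.39, and with local centring it was -1.19.

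The second ALOX15 probe, A_73_P102651, was dim. It gave 21.1, 29.0, 32.4 and 6.95 intensity units on CPE arrays, against 53.9, 48.9, 51.2 and 9.15 on CONTROL arrays. On replicates 1 to 3 of both groups, where its surroundings were bright, the CPE values were the lower ones. On replicate 4 of both groups the surroundings were dark, and 6.95 and 9.15 are values that recur for many spots of those arrays, the floor set by the scanner software. The probe was well above background on 4 of 8 arrays and was not tested.

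ALOX5, the 5-lipoxygenase that starts leukotriene synthesis, was read by A_73_114122 in the bright area. Raw signal around that spot was 1871 to 2114 on CPE arrays and 2088 to 2778 on CONTROL arrays. The part of these surroundings was likewise not tested. The processed signal was 136, 115, 73.6 and 103 on CPE arrays, against 273, 284, 284 and 200 on CONTROL arrays (means 107 ± 26.1 and 260 ± 40.7, SD, n = 4 each). Here too no CPE value reached the lowest CONTROL value. The bright-area log2 level was -2.57 ± 0.15 in CPE and -1.44 ± 0.096 in CONTROL, so ALOX5 was 2.18-fold lower in CPE (log2 change -1.12, SE 0.098, 95% interval -1.35 to -0.90, limma adjusted p = 5.14e-05). Over the whole array the change was -2.25 (SE 0.47, limma adjusted p = 0.00369), or -1.43 relative to the median probe. With normexp background correction in place of the scanner software's, the bright-area change was -0.52 and did not pass (limma adjusted p = 0.109).

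The other ALOX5 probe, A_73_P102001, had dark surroundings on all 8 arrays. Its processed signal was 3.72 to 22.7 on CPE arrays and 8.03 to 90.8 on CONTROL arrays, and it was well above background on CONTROL replicate 4 alone. This spot gives no second reading of ALOX5.

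ALOX5AP, the membrane protein FLAP that presents arachidonic acid to 5-lipoxygenase, did not follow the lipoxygenases in the bright area. Probe A_73_P048031 gave 1797, 1418, 2024 and 1484 intensity units on CPE arrays, against 2299, 2330.3, 2387 and 1606 on CONTROL arrays. The groups overlapped, since CPE replicates 1 and 3 exceeded CONTROL replicate 4. Raw signal around this spot was 2186 to 2454.5 on CPE arrays and 1643 to 2272 on CONTROL arrays. The bright-area log2 level was 1.43 ± 0.61 in CPE and 1.60 ± 0.11 in CONTROL, a change of -0.18 (SE 0.27, 95% interval -0.79 to 0.44, limma adjusted p = 0.615).

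That ALOX5AP value rested on CPE replicate 3, whose level of 2.34 stood above 1.26, 1.03 and 1.09 on the other CPE arrays and above 1.58, 1.67, 1.71 and 1.46 on CONTROL arrays. Without it the change was -0.48 and passed (limma adjusted p = 0.00356). With local centring it was -0.32 (limma adjusted p = 0.00113) and with normexp -0.46 (limma adjusted p = 0.0212). Over the whole array it was -1.30 (SE 0.42, limma adjusted p = 0.0306), or -0.49 relative to the median probe, a call that was lost without CPE replicate 1 or 2 or without CONTROL replicate 2, 3 or 4 (changes of -1.12 to -1.36).

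A second ALOX5AP probe, A_73_P119496, was designed on an expressed sequence tag and lay among the brightest surroundings of any member. It gave 18.6, 15.3, 6.54 and 13.5 on CPE arrays and 9.48, 10.15, 8.03 and 9.15 on CONTROL arrays. Only CPE replicate 1 was well above background there: this probe was dim in bright surroundings.

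**Figure D3:**
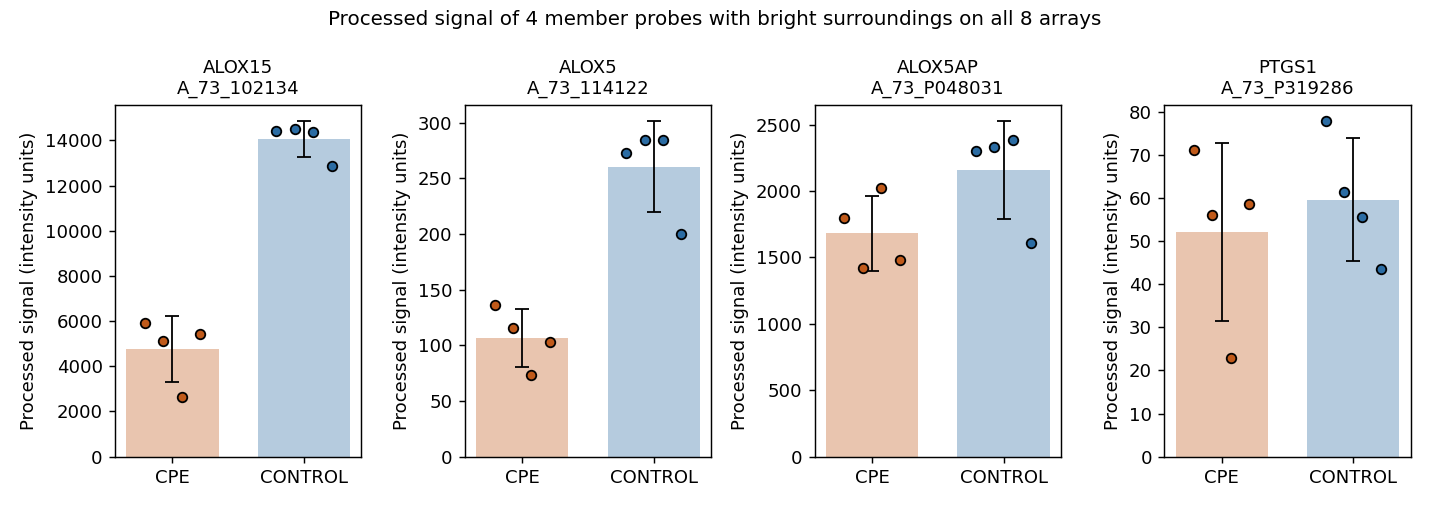
Processed signal in intensity units, linear axes from 0, of the 4 member probes tested in the bright area. Points are arrays in replicate order, bars are means and whiskers 1 SD (n = 4 per group), with CPE left of CONTROL. The groups are apart for ALOX15 (2629 to 5899.8 in CPE, 12849.9 to 14502 in CONTROL) and ALOX5 and overlap for ALOX5AP and PTGS1.

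Ratios of 2 spots of the same array do not depend on the scaling between arrays. They were added after the data had been seen, for the 3 members that were well above background throughout. The log2 ratio of ALOX15 over ALOX5AP was 1.72, 1.85, 0.38 and 1.87 on CPE arrays, against 2.65, 2.64, 2.59 and 3.00 on CONTROL arrays. All 4 CPE ratios lay below all 4 CONTROL ratios, by -1.27 on average. The two-sided exact permutation p was 0.0286, the smallest that 4 against 4 arrays can give (adjusted p = 0.0429 over 3 ratios). The ratios share members and were added after the levels of these members had been seen. Their p-values therefore do not stand as support of their own. A ratio keeps any effect of the surroundings of its spots, which are given above for each member, and that part was not tested.

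ALOX5 over ALOX5AP behaved alike, with a mean of -3.99 ± 0.53 on CPE arrays against -3.05 ± 0.031 on CONTROL arrays (SD over 4 arrays each), a difference of -0.95 (two-sided exact permutation p = 0.0286, adjusted p = 0.0429). ALOX15 over ALOX5 was 5.45 ± 0.23 in CPE and 5.77 ± 0.16 in CONTROL, and its difference of -0.32 did not pass (two-sided exact permutation p = 0.0857, adjusted p = 0.0857). Without CPE replicate 3 the 3 differences were -0.91, -0.68 and -0.22, with 0.0571 as the smallest p such a design allows. On the processed signal, ALOX15 and ALOX5 were thus lower relative to ALOX5AP on CPE arrays than on CONTROL arrays. The ratios were taken on that signal alone. With normexp, the bright-area falls of ALOX5 and ALOX5AP given above were of similar size.

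**Figure D4:**
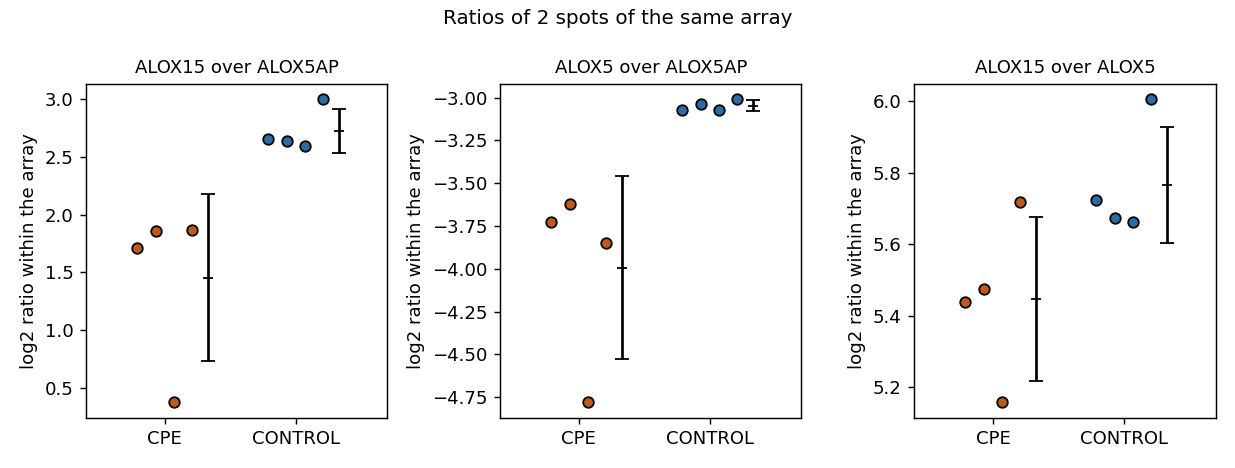
Log2 ratios of 2 member spots of the same array, with CPE arrays left of CONTROL arrays, points in replicate order, and the mean with 1 SD beside each group (n = 4). The lowest point of each CPE group is replicate 3. ALOX15 over ALOX5AP averages 1.45 in CPE and 2.72 in CONTROL.

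ALOX12, the 12-lipoxygenase known from platelets, was read by 1 probe with dark surroundings on 7 of the 8 arrays. Its processed signal was 3.72, 7.10, 5.12 and 6.95 on CPE arrays, against 19.9, 16.8, 18.2 and 18.0 on CONTROL arrays. The groups did not overlap, yet no spot was well above background, so no fold is given. The authors' deposited table lists this probe 2.66 log2 units lower in CPE (-1.57 for CPE and 1.09 for CONTROL). In the RefSeq annotation of the current bovine assembly, ALOX12 and ALOX15 lie on the same chromosome with 3 annotated genes between them, among them ALOX12E, and ALOX12 is also listed as an older name of ALOX15.

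No probe of the leukotriene enzymes LTC4S and LTA4H could be tested in the bright area. LTC4S, which joins glutathione to leukotriene A4 to make leukotriene C4, was read by A_73_P039456 at 114, 84.6, 1249.6 and 65.97 intensity units on CPE arrays, against 9.48, 10.15, 8.03 and 9.15 on CONTROL arrays. All 4 CPE values were well above background and all 4 CONTROL values were at the floor. With each CONTROL array set to its lowest signal well above background, LTC4S was at least 1.91-fold higher in CPE (at least 3.36-fold relative to the median probe), and without CPE replicate 3 at least 1.097-fold. The fit gave a change of 3.25 (4.06 relative to the median probe, 2.45 without CPE replicate 3; limma adjusted p = 0.00524). That change and p were taken against floor values. The bound rests on the lowest signal well above background anywhere on the array, not around the spot. Since the probe was tested because it was high in CPE, neither the bound nor the fit stands as support of its own.

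The LTC4S spot was dark-placed on all 8 arrays, and the signal around it moved with the result. Its surroundings reached 112 to 750 raw units on CPE arrays and 98 to 105 on CONTROL arrays, and the highest LTC4S value and the brightest surroundings were both on CPE replicate 3. The part of the surroundings in this change was not tested. With normexp the change was 0.78 and did not pass (limma adjusted p = 0.148).

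The other LTC4S probe, A_73_P140466, gave 3.72, 138, 149 and 6.95 on CPE arrays and 9.48, 53.0, 72.7 and 9.15 on CONTROL arrays. It was well above background on replicates 2 and 3 of both groups. Around it the raw signal was 912 and 460 on CPE replicates 2 and 3 and 530 and 593 on CONTROL replicates 2 and 3, against 70 to 200 on the other arrays. On this probe the groups overlapped, and no test was made.

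LTA4H, the hydrolase that makes leukotriene B4, had 1 probe in the bright area. A_73_P206237 gave 41.3, 36.6, 39.1 and 27.4 on CPE arrays and 35.7, 40.2, 40.7 and 18.5 on CONTROL arrays, overlapping throughout. It was well above background on CPE replicates 1 to 3 and on CONTROL replicate 3, so neither group qualified for the test.

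Its near copy A_73_P490518, with 46 shared bases but dark surroundings on all arrays, gave 3.72, 17.5, 8.97 and 6.95 on CPE arrays and 9.48, 20.3, 9.97 and 10.9 on CONTROL arrays. No value of it was well above background, although the same stretch read from the bright area was above background on 4 arrays. The third LTA4H probe, A_73_101454, gave 211, 918, 677 and 31.5 on CPE arrays and 73.0, 17.4, 13.7 and 32.8 on CONTROL arrays. Its 3 high CPE arrays are those with the brightest surroundings of that spot (431, 1533 and 1078 raw units, against 207 on CPE replicate 4 and 126 to 195 on CONTROL arrays), and it was bright-placed on CPE replicate 2 alone.

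The constitutive cyclooxygenase gene PTGS1 did not differ beyond its spread in the bright area. PTGS1 probe A_73_P319286 gave 71.0, 56.0, 22.9 and 58.6 on CPE arrays, against 77.7, 61.4, 55.5 and 43.5 on CONTROL arrays. CPE replicate 3 was again the lowest, and the other 3 CPE arrays lay within the CONTROL range. The bright-area log2 level was -3.69 ± 0.31 on CPE arrays against -3.59 ± 0.20 on CONTROL arrays (SD over 4 arrays each), a change of -0.098 (SE 0.17, 95% interval -0.48 to 0.29, limma adjusted p = 0.658).

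Whole-array scaling gave a PTGS1 change of -1.22 (SE 0.55, limma adjusted p = 0.0911), or -0.41 relative to the median probe, which did not pass. The sign in the bright area was not settled, since it was 0.051 without CPE replicate 3 and 0.15 with normexp. A second PTGS1 probe in the bright area, A_73_P100741, gave 2.99 to 10.3 on CPE arrays and 9.15 to 15.3 on CONTROL arrays and was well above background on none. The third, A_73_117128, was dark-placed throughout and gave 3.72 to 8.43 on CPE arrays and 13.4 to 53.0 on CONTROL arrays, with CONTROL replicate 1 alone well above background.

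PTGS2, the inducible cyclooxygenase of activated leukocytes, was not measurable on these arrays. Its 3 probes gave 3.72 to 25.0 intensity units on CPE arrays and 8.03 to 15.9 on CONTROL arrays, and 0 of their values was well above background. Bright surroundings were found for 1 of these probes, A_73_P100746, on CONTROL replicate 1. A change of PTGS2 was therefore not detectable here in either direction.

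For prostaglandin E synthesis the set holds PTGES, the inducible membrane enzyme, and PTGES3, a cytosolic enzyme better known as the p23 partner of the chaperone HSP90. PTGES probe A_73_111837 gave 3.72, 7.10, 8.43 and 6.95 on CPE arrays and 18.9, 15.1, 19.9 and 18.98 on CONTROL arrays, without overlap but never well above background. The probe that differs from it by A10C and A59C, A_73_P110216, gave 3.72, 7.10, 9.31 and 6.95 on CPE arrays and 70.9, 17.4, 8.03 and 9.15 on CONTROL arrays.

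These 2 nearly identical PTGES probes thus disagreed on CONTROL arrays, where the second one was high on replicate 1 alone, with surroundings of 258 raw units there against 98 to 111 on the other CONTROL arrays. The third PTGES probe, A_73_P256136, was well above background on CPE replicate 3 alone, at 86.0 intensity units against 6.95 to 15.0 on the other CPE arrays and 8.03 to 10.15 on CONTROL arrays.

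PTGES3 probe A_73_111983 was high or at the floor with its surroundings. It gave 1885, 7.10, 1456 and 8.15 intensity units on CPE arrays, against 1217, 991, 1136 and 9.15 on CONTROL arrays. The 3 arrays near the floor, CPE replicates 2 and 4 and CONTROL replicate 4, had surroundings of only 84 to 102 raw units, against 364 to 1571 on the 5 arrays where the probe was well above background. High and low values occurred in both groups, and the probe was not tested. The other PTGES3 probe, A_73_P102921, was dark-placed on all arrays and well above background on CPE replicate 3 alone, at 87.4.

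The authors' deposited table averages the same arrays, so its values are no second reading. For the 4 members that passed over the whole array it gives 3.25 for LTC4S A_73_P039456, -2.57 for ALOX15 A_73_102134, -2.25 for ALOX5 A_73_114122 and -1.30 for ALOX5AP A_73_P048031 (log2, CPE minus CONTROL). That table also lists PTGES3 A_73_111983 at -2.52 and LTA4H A_73_101454 at 2.26. The high values of these spots given above came from the arrays with their brighter surroundings, and a dependence on the surroundings was not tested. The table's log2 values were centred probe by probe, with column medians of -0.60 for CPE and 0.46 for CONTROL, and they show no level.

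Beyond the 10 genes, 72 further genes of eicosanoid metabolism were listed by role, with earlier results of these data known, and 66 of them were on the array with 133 probes. In the bright area 25 of these probes could be tested: 7 passed as higher and 9 as lower (24.5% and 23.9% of all tested probes did so), with a median log2 change of -0.015 against 0.034 for all tested probes. Over the whole array 42 were tested, of which 4 passed as higher and 12 as lower (17.4% and 21.6% of all tested probes), with a median of -0.82 against -0.81. Counts for the bright area moved with the processing, to 4 with no scaling and 5 with normexp.

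Upstream, PLA2G4A, the cytosolic phospholipase that releases arachidonic acid, was lower in CPE. Its processed signal was 142, 124, 52.5 and 147 on CPE arrays and 191, 219.97, 195 and 168 on CONTROL arrays, without overlap. The bright-area log2 change of PLA2G4A was -0.66 (SE 0.15, limma adjusted p = 0.00658). PLA2G15, the lysosomal phospholipase, was higher by 0.63 (SE 0.12, limma adjusted p = 0.00309), and its groups separated only after scaling. Its processed signal was 61.4 to 126 on CPE arrays and 64.3 to 85.4 on CONTROL arrays. The 3 phospholipase probes tested thus held 1 rise and 1 fall.

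Among 6 probes of other synthases, MGST3, which can conjugate leukotriene A4, rose by 0.55 and 1 of the 2 AKR1B1 probes rose by 0.40, whereas the thromboxane synthase TBXAS1 fell by 0.39 and the prostacyclin synthase PTGIS fell by 0.38. The second AKR1B1 probe had a change of 0.082 and did not pass. Before scaling, the groups overlapped for MGST3, PTGIS and the AKR1B1 probe that passed, and stood apart for TBXAS1. None of the 4 changes that passed was as large as those of ALOX15 and ALOX5.

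Of 5 receptor probes, 3 passed as higher, 1 of them (PTGFR) against floor values. LTB4R, the leukotriene B4 receptor of neutrophils, was 178.7, 115, 125 and 155 on CPE arrays and 106, 114, 115 and 85.6 on CONTROL arrays. Its bright-area log2 change was 0.61 (SE 0.17, limma adjusted p = 0.0185), and the groups separated only after scaling. PTGDR, a prostaglandin D2 receptor, rose by 0.45, and PTGER4, a prostaglandin E2 receptor, fell by 0.31. For both of these, too, the groups overlapped before scaling.

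PTGFR, the prostaglandin F2α receptor, lies outside the naming rule and was singled out after its values were seen. It was 63.7, 81.2, 44.7 and 58.2 on CPE arrays, all well above background, and 9.48, 10.15, 8.03 and 9.15, the floor, on CONTROL arrays. The spot was bright-placed on all 8 arrays. With CONTROL arrays set to their lowest signal well above background, PTGFR was at least 1.502-fold higher in CPE on the bright-area scale, whereas on the whole-array scale no rise was bounded (at least 1.21-fold relative to the median probe). The bright-area fit gave limma adjusted p = 4.95e-06, but against floor values. Since the probe was tested only through its CPE arrays, neither this p nor the bounds stand as support of their own.

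Of 9 probes for breakdown and transport, 1 passed as higher and 4 as lower. The leukotriene C4 exporter ABCC1 rose by 0.64 (SE 0.16, limma adjusted p = 0.011), with groups that overlapped before scaling. Both probes of SLCO3A1, an organic anion carrier that moves prostaglandins, fell, by 0.84 and 0.62, and PTGR1, which inactivates leukotriene B4 and prostaglandins, fell by 0.49 (SE 0.091, limma adjusted p = 0.00256). GGT5, which trims leukotriene C4 to D4, passed at -0.98 but was well above background on only 3 of 4 CPE arrays. Of the 2 regulator probes tested, ANXA1, annexin 1, a brake on phospholipase activity, fell by 0.42 and GPX1 had a change of -0.015 that did not pass.

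**Figure D5:**
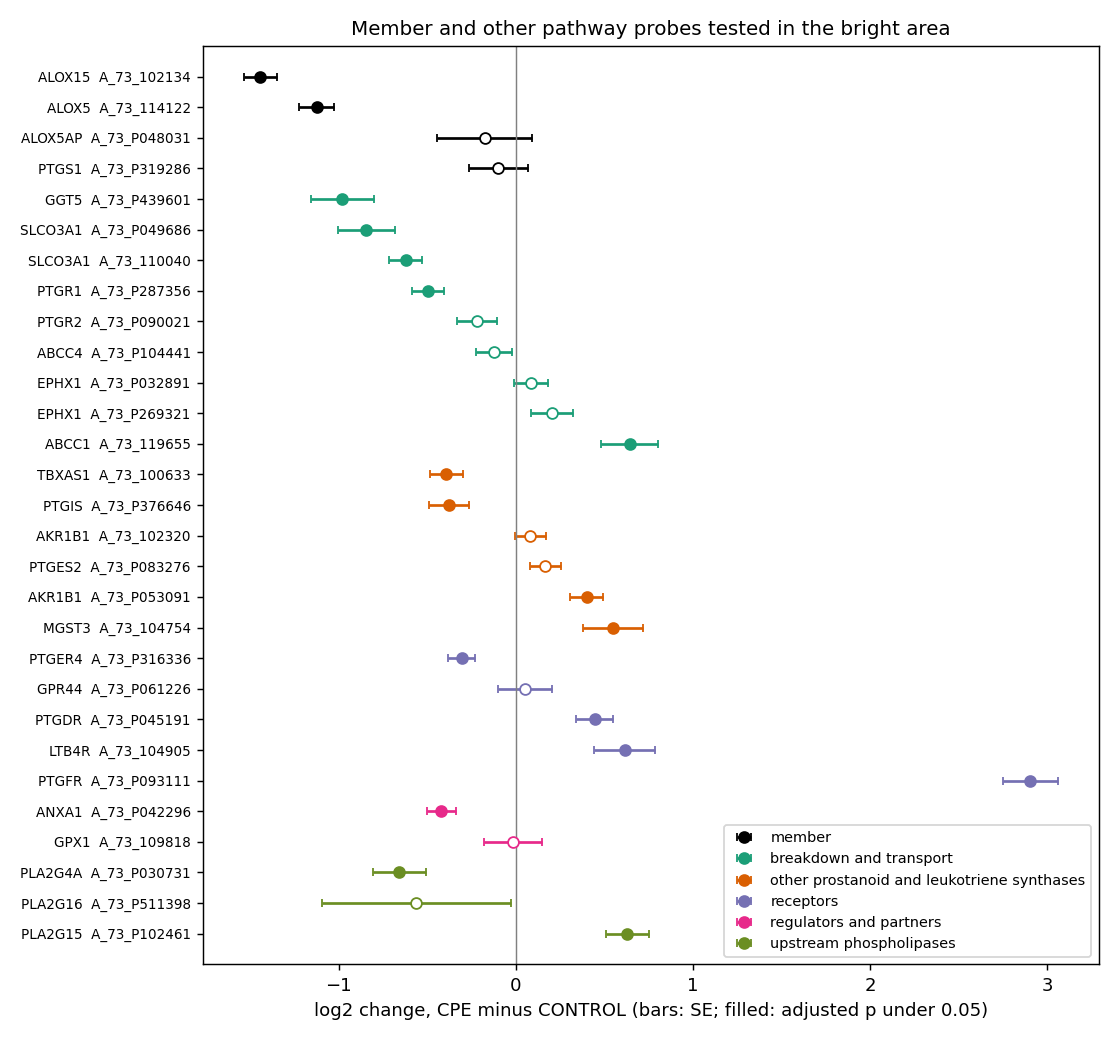
Bright-area log2 change (CPE minus CONTROL, 0 marked by a line) of the 4 member probes and the 25 other pathway probes tested, ordered by role. Whiskers are 1 SE and filled points have an adjusted p under 0.05. ALOX15 at -1.44 and ALOX5 at -1.12 lie furthest to the left, and PTGFR at 2.90, at the floor on CONTROL arrays, furthest to the right.

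In dark areas of the whole array, 3 further genes of the list had all arrays of 1 group at background. GPX1 probe A_73_P031771 was at least 12.3-fold higher in CPE (at least 21.6-fold relative to the median probe, and at least 4.94-fold without CPE replicate 3 and 25.3-fold without CPE replicate 2, both before that adjustment). LTB4R2 was at least 2.53-fold higher (4.45-fold relative to the median probe), and PTGER3 was at least 9.78-fold lower (5.57-fold relative to the median probe). Each of these spots was dark-placed on all 8 arrays, as was that of LTC4S. GPX1 A_73_P031771 gave 2397, 135, 23306 and 180 intensity units on CPE arrays and 8.03 to 10.15 on CONTROL arrays. All 3 probes were tested only through the group where they were high, so these bounds do not stand as support of their own. Each bound rests on the lowest signal well above background anywhere on the array, not around the spot. The share of all probes with this pattern is not given. The GPX1 probe in the bright area had the change of -0.015 given above.

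Markers of blood cell types that could carry these enzymes are given beside these values, and 24.5% of all tested bright-area probes passed as higher and 23.9% as lower. Of 5 neutrophil marker probes 4 passed as lower. CXCR2 fell by 1.12, a probe shared by CXCR1 and CXCR2 by 0.99 and CSF3R by 0.92, S100A12 rose by 0.25, and ALPL passed at -2.23 with only 1 of 4 CPE arrays well above background. Their summed level was 103 to 116 on CPE arrays and 98.6 to 110 on CONTROL arrays, in multiples of the bright-area 75th percentile. Most of that sum was S100A12, with a mean log2 level of 6.58 in CPE and 6.33 in CONTROL. The next highest neutrophil probe, CSF3R, was at 3.13 and 4.05. Of 6 monocyte marker probes 4 fell and 0 rose, with a summed level of 24.1 to 25.6 on CPE arrays and 32.6 to 36.1 on CONTROL arrays. Of 10 T cell marker probes 6 rose and 0 fell, with sums of 41.3 to 46.7 on CPE arrays and 31.6 to 36.1 on CONTROL arrays.

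For the cells known in man for 15-lipoxygenase, 4 of 8 eosinophil marker genes were on the array with 5 probes, and none could be tested. EPX, PRG3 and RNASE2 were well above background on 0 of 8 arrays, with 1 PRG3 probe in the bright area at 2.45 to 12.2 on CPE arrays and 18.5 to 23.6 on CONTROL arrays. CCR3 was above background on 2 CPE arrays in dark surroundings. Among mast cell and basophil markers the 1 KIT probe tested passed at -1.34, with only 2 of 4 CPE arrays well above background. Other probes of that list did not fall with it. Over the whole array 3 were tested, of which 0 passed as higher and 1, the same KIT probe, as lower. FCER1A had a whole-array change of 1.37 and the second KIT probe 0.21, and neither passed. The processed signal of FCER1A was 193 to 272 on CPE arrays and 9.15 to 90.5 on CONTROL arrays. Of 3 platelet probes PPBP rose by 1.47 and F13A1 did not pass on either of its probes. The part of cell composition in the changes of ALOX15 and ALOX5 was not tested.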

How the data were processed

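Signal intensity per spot comes from the deposited scanner files, 1 per array, made with Agilent Feature Extraction 10.10.1.1 per the submitters' processing notes. Per the file headers, the processed signal intensity was background-subtracted and spatially detrended, with low values raised to a floor, and was not scaled between arrays. The deposited group table holds log2 values that the authors averaged. Compared with values recomputed from the scanner files (75th-percentile shift, then each probe centred on its median), they correlate at 0.999974 for CPE and 0.999942 for CONTROL. The labels give an RNA integrity number above 7 for every sample.

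From the processed intensities, log2 values minus each array's 75th percentile were computed, control spots and outlier flags were left out (0 flags fell on members) and spots of a probe were averaged. The CPE and CONTROL groups were fitted with limma 3.58.1 (R 4.3.3, two-sided, Benjamini-Hochberg over all probes tested, threshold 0.05); ratios within an array were tested with scipy 1.17.1 by exact permutation. At least 2 values per group were needed. On simulated data with 200 changed probes both fits were tested before use. The number of arrays, 4 per group, limits the precision. No fit with slide as a term can be had, because each group lies on its own slide.

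The members and all lists were chosen with earlier results of these data known. Besides the members, up to 6 rises and 6 falls of other pathway probes were named per comparison by size, among those that passed, were measured above background throughout and did not overlap between groups; PTGFR, GGT5, PTGER4, PTGIS, GPX1, LTB4R2 and PTGER3 were named after their values were seen, as were the markers. Alternatives were quantile normalisation, no scaling, normexp (offset 50), other filters on dim probes, a replicate block, trended robust variance, local centring, limits of 1 and 2 log2 units or 121 neighbours for bright surroundings, and leaving out each array. Ratios within an array and lower bounds without each array were added after seeing the data. Normexp used median spot signals. Deviations of same-numbered arrays from their group means correlated at -0.10, -0.11, 0.24 and 0.38 in the bright area. These mixed values do not settle whether the numbers pair samples. Gene symbols are the files' own; all 10 are in RefSeq (ARS-UCD2.0), which served for names only, and no positions are given because the array refers to another build.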

Additional observations from a re-analysis of the deposited data

Results flagged for a closer look

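2 of the 54 groups of 4 arrays checked held an array far from the others, and chance marks about 1 in 20 groups. Both belong to CONTROL replicate 4 in the bright area. ABCC1 had a log2 level of 0.20 there, with the nearest other CONTROL array at 0.52, and SLCO3A1 (A_73_110040) had 0.47, with the nearest at 0.29. Neither value belongs to a member of the set.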

How the results depend on the processing

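In the bright area, the fall of ALOX15 passed under every alternative run (-1.19 to -1.62 on the log2 scale), and the fall of ALOX5 under every one but normexp (-0.52). PTGS1 turned its sign with normexp (0.15) and without CPE replicate 3 (0.051; -0.19 to 0.051 over the arrays left out). ALOX5AP passed with normexp, with local centring and without CPE replicate 3. Over the whole array, LTC4S did not pass with normexp (0.78), and ALOX5AP did not pass with no scaling (-0.36) or with no filter on dim probes (adjusted p = 0.0621 by limma). The number of member probes past the threshold over the whole array was 7 (1 rise, 6 falls) with no filter on dim probes, where 23 rather than 5 were tested. The count over all probes, 5808, became 3129 with normexp, 3667 when only probes well above background on all 8 arrays were tested, and 9410 with local centring; that of other pathway probes, 16, became 7 with normexp and 31 with local centring, the last chosen after seeing the data. In the bright area the count over all probes, 3888, became 1469 with no scaling and 1703 with normexp, and that of other pathway probes, 16, became 4 and 5. The cause was not tested, except that fewer probes were tested under the stricter filter.

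Leaving out each array in turn gave 3757 to 6814 probes over the whole array (3757 without CONTROL replicate 2), 3 to 5 member probes and 8 to 17 other pathway probes (8 without CONTROL replicate 2 or 3, 9 without CONTROL replicate 4, 10 without CPE replicate 1). In the bright area it gave 3214 to 4405 probes, 2 to 3 member probes and 14 to 17 other pathway probes. With the replicate number as a block, 7025 probes passed over the whole array and 3762 in the bright area, with 4 and 2 member probes. No call of a member changed, and whether the numbers pair the samples is not known. Signal over background set what could be tested: 18 of 23 member probes were too dim to be tested over the whole array.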
